A study of Mus musculus with 2 samples.

Results

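Zap70, Jak3, Dok2 and Pglyrp1, genes named for their roles in lymphocytes and granulocytes, were among the genes with the lowest signal ratios between pooled cortical RNA of newborn MRTF double knockout mice and that of their controls. They are described here together with 6 partners from the same cells, Cd3e, Cd3g, Lck, Ptpn6, Il2rg and Syk, which makes 10 genes of the 18193 named by the array's probe sets. The first 4 were chosen by their low signals in the double knockout pool relative to the control pool, so those values are a description and support nothing by themselves. Every probe set that the platform annotation gives to exactly 1 of the 10 genes was used. That rule found 14 probe sets for 8 genes, and no probe set in the annotation table used here is given to Lck or Il2rg, which were not analysed here.

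The data are 2 Affymetrix expression arrays, each hybridised with RNA pooled from the cortices of 3 mice. The pool labelled double knockout was MRTF-A-/-;MRTF-BF/F;GFAP-Cre, that is, null for Mrtfa and carrying floxed Mrtfb alleles together with a Cre recombinase named for the GFAP promoter of glia and their precursors. The pool labelled control was MRTFA-/-;MRTF-BFlox/Flox, with the same Mrtfa null and floxed Mrtfb alleles and no Cre, so both pools lack a wild-type Mrtfa gene by their labels. The labels give the age of both as postnatal day 0, except that the description of the double knockout sample gives day 1. Each group has a lone array and no replicate, no test was made, and pooling hides how the 3 animals of a group differ. Fewer cells of a type and less RNA per cell cannot be told apart in such pools.

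MRTF-A and MRTF-B work with SRF, a transcription factor that binds the CArG box in the promoters of actin and other cytoskeletal genes. T cell receptor signalling works in relays: the CD3 chains carry the receptor's signalling motifs, the Src-family kinase Lck phosphorylates them, and the kinase ZAP-70 docks on them and passes the signal to adaptors. Syk is the related kinase of B cells and myeloid cells. JAK3 is the kinase bound to the common gamma chain, encoded by Il2rg, which interleukin 2 and its relatives share. DOK2 and the phosphatase SHP-1, encoded by Ptpn6, dampen such signals in blood cells, and PGLYRP1 is an antibacterial protein of neutrophil granules. Newborn cortex normally holds microglia and border macrophages and, in its vessels, blood, with few lymphocytes.

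The promoters of the lowered genes show the sequence that lies at their starts, with the letters of the motifs searched in capitals. The RefSeq promoter table of GRCm38.p6 covers 250 bases before and 50 after a start, and held 13 starts for 9 of the 10 genes, all but Dok2. Motifs searched on both strands were the CArG box, AGGAAG (an ETS-type core), TGTGGT (a RUNX-type core), GGGCGG (a GC box) and TATAAA. Shown 5′ to 3′ on the gene's strand are the most upstream starts of Zap70 (chr1:36761548-36761847, + strand), Jak3 (chr8:71676133-71676432, + strand) and Pglyrp1 (chr7:18884440-18884739, + strand).
Zap70: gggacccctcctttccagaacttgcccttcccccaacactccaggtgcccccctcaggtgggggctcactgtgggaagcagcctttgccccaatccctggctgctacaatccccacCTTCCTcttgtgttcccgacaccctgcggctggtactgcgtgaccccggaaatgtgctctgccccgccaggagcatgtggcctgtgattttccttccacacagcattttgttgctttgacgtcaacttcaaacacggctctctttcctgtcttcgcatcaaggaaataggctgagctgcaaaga
Jak3: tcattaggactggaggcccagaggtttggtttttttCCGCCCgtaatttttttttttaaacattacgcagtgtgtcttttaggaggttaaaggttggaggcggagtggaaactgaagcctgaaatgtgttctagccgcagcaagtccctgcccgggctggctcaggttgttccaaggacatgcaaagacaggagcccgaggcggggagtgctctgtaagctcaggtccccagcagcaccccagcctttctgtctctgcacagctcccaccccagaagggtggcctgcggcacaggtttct
Pglyrp1: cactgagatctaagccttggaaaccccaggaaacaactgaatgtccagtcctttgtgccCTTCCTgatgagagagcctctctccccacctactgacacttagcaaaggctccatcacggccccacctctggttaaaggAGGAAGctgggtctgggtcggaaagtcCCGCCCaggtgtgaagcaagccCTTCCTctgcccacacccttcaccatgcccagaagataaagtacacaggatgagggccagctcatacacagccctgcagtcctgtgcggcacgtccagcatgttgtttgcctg

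The capitals in the Zap70 promoter mark 1 AGGAAG on the opposite strand, those in the Jak3 promoter 1 GGGCGG on the opposite strand, and those in the Pglyrp1 promoter 3 AGGAAG and 1 GGGCGG. No CArG box was found in any of the 13 promoter windows, against 1.63% of the 32851 windows in the table. AGGAAG was in 8 of the 13, against 35.4% of all windows, TGTGGT in 3 against 16.8%, GGGCGG in 5 against 35.7%, and TATAAA in 0 against 13.6%. The motifs do not overlap each other in the 3 sequences shown. These matches describe letters in the windows and say nothing about binding.

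Signals are MAS5 intensities on a linear scale and are printed as deposited. For differences they were centred between the arrays, and a floor of 178.6, the median of all signals, marked what was treated as measured. A gene was measured when a probe set reached the floor in at least 1 pool, and its value is that of its brightest such probe set. Differences are on the log2 scale, double knockout minus control, and a fold is a lower bound where the signal of 1 pool lay under the floor. Of the 14 probe sets of the 8 genes, 2 reached the floor in both pools, 4 in the control pool alone and 8 in neither. Measured genes thus numbered 5 of the 8, and Syk, Cd3e and Cd3g stayed under the floor. Jak3, Dok2 and Pglyrp1 passed through the control pool alone, so that a lower value in the double knockout pool was fixed by how they entered. The direction of any list gene that reached the floor in 1 pool alone was fixed in the same way.

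**Figure D1:**
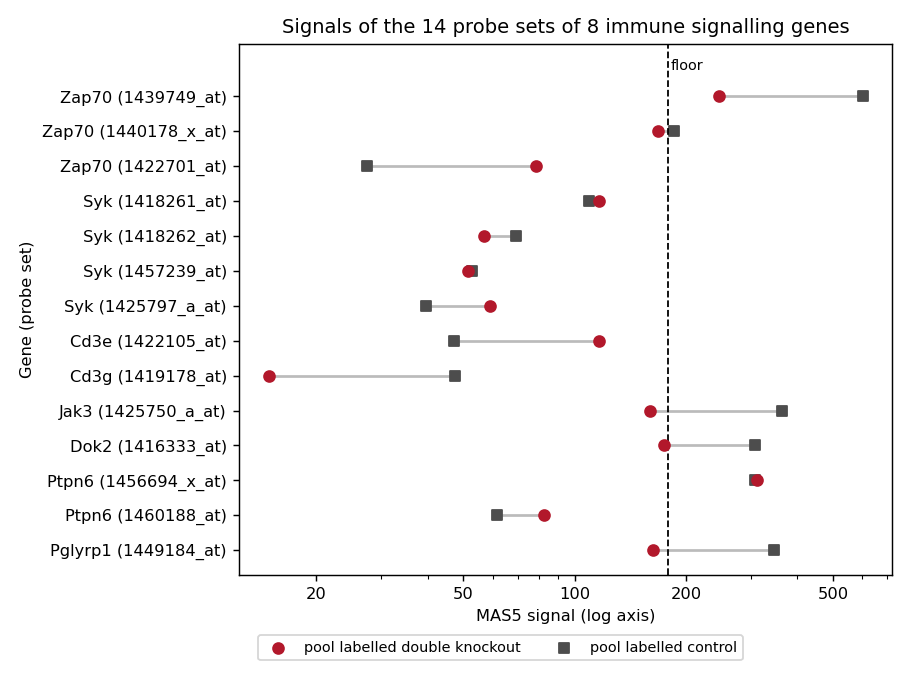
Signals of the 14 probe sets of the 8 genes (log axis, rows) in the pool labelled double knockout (red circles) and the pool labelled control (grey squares), with the floor of 178.6 as a dashed line. Among probe sets that reach the floor, wide gaps to the left are seen for 1 of 3 Zap70 probe sets and for Jak3, Dok2 and Pglyrp1. Cd3e and Cd3g lie under the floor with wide gaps in opposite directions, that of Cd3g to the left.

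Zap70 lies at chr1:36761798-36782821 (GRCm38.p6) and encodes the kinase ZAP-70 of T and NK cells. Its brightest probe set read 245.4 in the double knockout pool and 601.1 in the control pool, 2.46-fold lower (log2 difference -1.30). Its rank from the lowest of 11636 measured genes was 2. The next probe set, with the suffix for possible cross-hybridisation, read 168.0 in the double knockout pool and 186.0 in the control pool, at least 1.04-fold lower. The probe set annotated with the RefSeq mRNA of Zap70 read 78.5 in the double knockout pool and 27.5 in the control pool, under the floor in both and with the order of the pools turned round. The large difference thus rests on 1 of 3 Zap70 probe sets, and the mean over the 2 that reached the floor, 1 of them a bound, was -0.68.

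Syk, the relative of Zap70, lies at chr13:52582610-52648792 and had 4 probe sets, none of which reached the floor. They read 116.6, 56.8, 58.8 and 51.5 in the double knockout pool, against 109.4, 69.3, 39.6 and 52.6 in the control pool. The double knockout signal was above the control signal for 2 and below it for 2.

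The CD3 chains, which carry the docking sites of ZAP-70, were dim in both pools. Cd3e (chr9:44998735-45009663), encoding CD3 epsilon, read 116.1 in the double knockout pool and 47.2 in the control pool. Cd3g (chr9:44969572-44980431), encoding CD3 gamma, read 14.9 in the double knockout pool and 47.3 in the control pool. The genes of these receptor partners, close neighbours on chromosome 9, thus went opposite ways under the floor. No fold is given for them, because raw ratios at that level vary widely: of the 21608 probe sets under the floor in both pools, 12.6% were at least 2-fold lower and 6.6% at least 2-fold higher in the double knockout pool.

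Jak3 (chr8:71676383-71690577) had 1 probe set of its own, with the suffix for several transcripts of a gene. It read 159.8 in the double knockout pool and 363.5 in the control pool, at least 2.03-fold lower. Another 2 probe sets are annotated to Jak3 and Insl3 jointly. Insl3 encodes a hormone of the testis, and its gene lies within the end of Jak3 at chr8:71689252-71690577, so these signals cannot be given to either gene. The first read 345.6 in the double knockout pool and 433.8 in the control pool, a difference of -0.33, smaller than that of the Jak3 probe set. The second read 8.7 in the double knockout pool and 44.4 in the control pool, under the floor in both. The double knockout signal was the lower one for all 3 probe sets, a count that supports nothing by itself. Jak3 was chosen by the low signal of its own probe set, and 1 joint probe set lay under the floor.

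Dok2 (chr14:70765889-70778494), which encodes an adaptor that recruits RasGAP and limits receptor signals, was read by 1 probe set. Its signals were 174.8 in the double knockout pool and 307.2 in the control pool, at least 1.72-fold lower. The double knockout value lies just under the floor of 178.6, so the bound is close to the difference without a floor, -0.82. Ptpn6 (chr6:124720707-124738709), encoding SHP-1, was nearly equal between the pools. Its brighter probe set, with the suffix for possible cross-hybridisation, read 312.0 in the double knockout pool and 306.3 in the control pool, a log2 difference of 0.02. Its other probe set read 82.6 in the double knockout pool and 61.7 in the control pool, under the floor.

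Pglyrp1 (chr7:18884690-18890438) was read by 1 probe set, annotated with its RefSeq mRNA. It read 162.3 in the double knockout pool and 346.1 in the control pool, at least 1.94-fold lower. Its bound fell just short of the 2-fold line that Jak3 passed, and its rank from the lowest of all measured genes was 8, with Jak3 at rank 5 and Dok2 at rank 24.

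Of the 5 measured genes, Zap70 and Jak3 were past 2-fold lower, against 0.043% of all measured genes (5 of 11636), and the rule used this contrast. At 1.5-fold Dok2 and Pglyrp1 joined them, against 0.773% of all measured genes. Higher genes past these folds were 0.0344% and 0.37% of all. The SD of the differences over all genes at or above the floor in both pools was 0.187, and 0.181 between probe sets of a gene. By brighter signal the SD over genes was 0.224 under 400, 0.211 from 400 to under 800 and 0.149 from 800 upwards. Jak3, Dok2 and Pglyrp1, as bounds, are not among these genes.

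**Figure D2:**
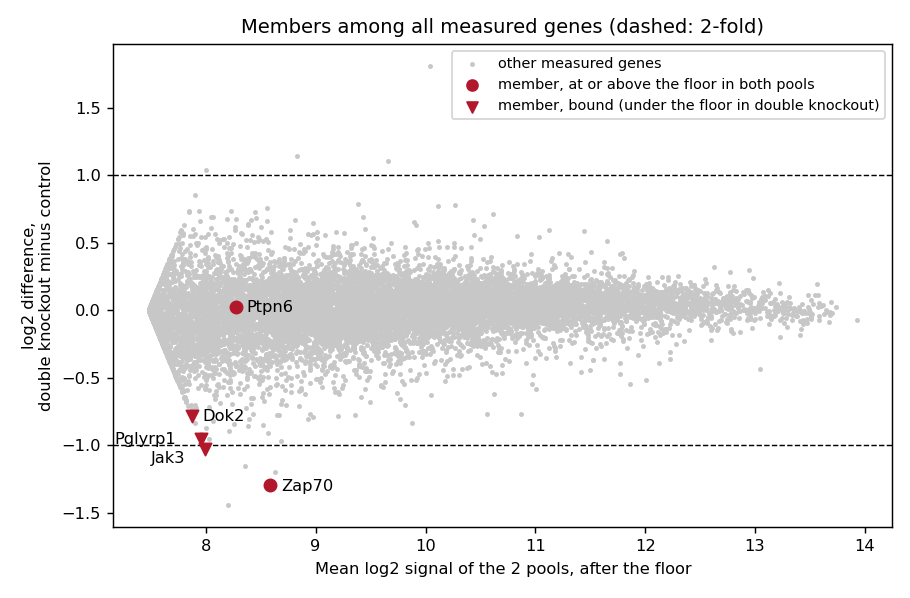
Log2 difference between the pool labelled double knockout and the pool labelled control against the mean log2 signal after the floor, for 11636 measured genes (grey) and the 5 measured members (red, triangles for bounds). Zap70, Jak3, Pglyrp1 and Dok2 lie at the dim end with differences of -1.30, -1.02, -0.95 and -0.78, and Ptpn6 lies at 0.02.

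Dim signals as a whole leaned to the lower side in the double knockout pool, and the 4 lowered genes were dim. Among genes whose brighter signal was under 400, where Jak3, Dok2 and Pglyrp1 belong, 1.27% were past 1.5-fold lower and 0.569% past 1.5-fold higher. Of the bounds in that range, 445 genes reached the floor in the control pool alone and 177 in the double knockout pool alone. Between 400 and 800, where Zap70 belongs, 1.31% were past 1.5-fold lower and 0.403% higher, and from 800 upwards 0.229% lower and 0.247% higher. Zap70 was at -1.25 after quantile normalization and -1.26 after loess centring, Jak3 at -1.0036 and -0.9974, Pglyrp1 at -0.93 in both, and Dok2 at -0.74 and -0.75. The part of the lean among dim signals in these differences was not tested.

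The same comparison between probe sets was made over all genes past 1.5-fold. Of the 90 genes past 1.5-fold lower, 23 had another measured probe set, and in 2 of these another one was past 1.5-fold lower too. Among their 36 other probe sets, 22 differed in the same direction. Of the 43 genes past 1.5-fold higher, 12 had another measured probe set, and in 2 of these another one was past 1.5-fold higher too. Of the 4 lowered genes described here, Zap70 alone belonged to those 23. Genes with only 1 probe set were past 1.5-fold lower in 0.942% of 4246 cases.

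Nearest to Zap70 by mean log2 signal and log2 difference, over these 2 pools, was Mrtfa, labelled null in either pool. It read 262.4 in the double knockout pool and 601.6 in the control pool on its only measured probe set. The next were Pcdhb9, a clustered protocadherin, at -1.15, and Mobp, a myelin protein, at -0.97. Likeness over 2 pools means only a similar brightness and difference.

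The measured neighbours of the 4 genes differed by less than 1.5-fold, as did all but 0.773% (lower) and 0.37% (higher) of measured genes. Tmem131, which follows Zap70, differed by 0.09, and Unc13a, a synaptic vesicle priming gene before Jak3, by 0.07. Xpo7 before Dok2 and Gfra2 after it differed by 0.11 and 0.04. Ccdc61, after Pglyrp1, differed by -0.30, at 208.7 in the double knockout pool and 257.1 in the control pool. The gene before Zap70, 4933424G06Rik, was under the floor in both pools, and Insl3 and Mill2 have no probe set of their own in the table.

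Other genes of T cell receptor signalling were mixed. Of 26 named genes 13 were measured, 11 of them in both pools and the others, counted lower, in the control pool alone. The 13 split into 6 lower and 7 higher, with 0 past 1.5-fold in either direction by their brightest probe sets. That is near the shares of all measured genes past this fold, 0.773% lower and 0.37% higher. Their median difference was 0.07, or -0.10 with a lower floor, the 25th percentile of signals, and -0.04 with no floor. Over all measured genes 5480 were lower, 6156 were higher and the median was 0.01. Csk, the kinase that holds Src-family kinases in check, differed by 0.42, and the ubiquitin ligase Cbl and the phospholipase Plcg1 by 0.24 each. Cbl and Plcg1 had 2 measured probe sets each, with means of 0.15 and 0.10. Several of the 13, such as the Src-family kinase Fyn (2798.2 in the double knockout pool and 2797.2 in the control pool), are also expressed by neurons. The other 13 were under the floor in both pools. Among them the adaptor Lat of T cells read 21.3 in the double knockout pool and 22.7 in the control pool. Cd8a, also of T cells, was measured, at 290.7 in the double knockout pool and 275.3 in the control pool. That probe set carries the suffix for possible cross-hybridisation. Themis read 165.0 in the double knockout pool and 216.6 in the control pool, reaching the floor in the latter alone.

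Genes around JAK3 split evenly. Of 23 named common gamma chain cytokines, receptors, kinases and STAT factors 8 were measured, 4 lower and 4 higher. Of the 8, 7 reached the floor in both pools and the other, counted lower, in the control pool alone. The count past 1.5-fold was 0, near the shares of all measured genes (0.773% lower and 0.37% higher). Their median was 0.01, or -0.11 with the lower floor and -0.12 with no floor. Stat3 differed by 0.32, Tyk2 by -0.28 and Stat5b by -0.26. Stat3 and Tyk2 had 2 measured probe sets each, with means of 0.11 and -0.15. Every cytokine and receptor of this list was under the floor in both pools, the brightest receptor signal being 142.5 for Il7r in the double knockout pool and 176.7 for Il15ra in the control pool. The JAK3 relatives Jak1 and Jak2 were bright and differed by 0.05 and -0.06, with means over their measured probe sets of 0.16 and 0.04.

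By brightest probe set, none of the measured inhibitory partners was past 1.5-fold, a fold that 0.773% of all measured genes passed lower and 0.37% higher. In the DOK list 7 of 8 genes were measured, 4 lower and 3 higher, with a median of -0.02. That median was 0.06 once the floor was set at the 75th percentile, -0.17 at the lower floor and also without any floor, and -0.08 without suffixed probe sets. Dok3, the DOK protein of B cells and macrophages, differed by -0.50 (187.7 in the double knockout pool and 265.4 in the control pool). Inpp5d, the inositol phosphatase SHIP1 of blood cells, differed by -0.47 (229.1 in the double knockout pool and 316.2 in the control pool). The receptor kinase gene Tek, of endothelium, differed by 0.31. Of 12 receptors and relatives linked to SHP-1, 6 were measured, 5 lower and 1 higher, with a median of -0.24. Cd22, an inhibitory receptor of B cells, differed by -0.44, Ceacam1 by -0.29 and Kit by -0.26. The mean over the 2 measured Kit probe sets was lower, at -0.46.

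Measured partners of Syk and genes of peptidoglycan recognition were also all within 1.5-fold, like all but 0.773% (lower) and 0.37% (higher) of measured genes. Of 14 named Syk and Src-family partners 8 were measured, 6 lower and 2 higher, with a median of -0.01. Of the 8, 6 reached the floor in both pools. The others, counted lower, reached it in the control pool alone, which fixed their direction. Tyrobp, an adaptor of microglia, differed by 0.33, Src by -0.24 and Yes1 by 0.20. Of 8 named peptidoglycan and bacterial recognition genes 5 were measured, 4 lower and 1 higher, with a median of -0.14. Of these 5, 4 reached the floor in both pools and the other, counted lower, in the control pool alone. Trem1, a receptor of neutrophils and monocytes that PGLYRP1 can engage, differed by -0.37 (185.0 in the double knockout pool and 238.0 in the control pool). Cd14 differed by -0.14 and Myd88 by 0.04. The relative Pglyrp2 read 2.3 in the double knockout pool and 3.0 in the control pool.

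Markers of the blood cells that express these genes were mostly under the floor in both pools. Of 16 T cell markers 2 reached the floor, Cd8a and Icos. Cd8a, on a probe set with the suffix for possible cross-hybridisation, read 290.7 in the double knockout pool and 275.3 in the control pool. Icos read 276.1 in the double knockout pool and 245.1 in the control pool. The mean difference over the 2 measured Icos probe sets was 0.004, against 0.17 for the brighter. The 16 markers summed to 1274.5 in the double knockout pool and 1214.8 in the control pool. The other 14 ran from 1.1 to 116.1 in the double knockout pool and from 2.8 to 127.6 in the control pool, and 7 of them read lower and 7 higher in the double knockout pool. No NK cell marker of 9 reached the floor, and 7 read lower and 2 higher in the double knockout pool. Their sums were 632.3 in the double knockout pool and 796.2 in the control pool.

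Neutrophil markers were nearly all under the floor. Of 16 only Csf3r reached the floor, at 244.0 in the double knockout pool and 232.5 in the control pool, and the sum, mostly of signals under the floor, was 1318.2 in the double knockout pool and 1315.4 in the control pool. Of the 15 markers under the floor in both pools, 10 read lower and 5 higher in the double knockout pool. With the lower floor, which lets in more of the list, its median was -0.16. Mast cell and granulocyte markers summed to 460.9 in the double knockout pool and 597.1 in the control pool, with 1 of 9 reaching the floor.

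B cell markers were dim in both pools. Of 12 named 4 were measured and all 4 were lower, with a median of -0.33, although Blk and Pax5 reached the floor in the control pool alone. The count past 1.5-fold lower was 0, against 0.773% of all measured genes. Cd22 read 198.9 in the double knockout pool and 269.3 in the control pool, and Ms4a1, which encodes CD20, 181.0 in the double knockout pool and 222.1 in the control pool. The list summed to 1238.3 in the double knockout pool and 1636.8 in the control pool. The defining Cd79a and Cd79b read 18.3 and 20.2 in the double knockout pool, against 30.3 and 50.2 in the control pool. The part of B cells in the low values was not tested.

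Adult haemoglobin signals, a measure of blood in the tissue, were bright and nearly equal in both pools. The probe set shared by the adult beta-globin genes read 6836.0 in the double knockout pool and 6651.1 in the control pool, a difference of 0.04. The 3 probe sets shared by the alpha-globin genes Hba-a1 and Hba-a2 differed by -0.07, -0.06 and -0.07. These joint probe sets were looked up after the data were seen, since of 14 genes in the erythroid list only Hbb-b2 was measured on probe sets of their own, at -0.06. Platelet markers had 5 of 8 measured, 4 lower and 1 higher, with a median of -0.12. Among them Itga2b, which encodes integrin alpha IIb, differed by -0.32, Pf4, platelet factor 4, by 0.13 and Treml1 by -0.12.

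Markers shared by leukocytes had 6 of 10 measured genes lower and 4 higher. Of the 10, 8 reached the floor in both pools. The others, counted lower, reached it in the control pool alone, which fixed their direction. The median of the list was -0.04. That median was 0.02 after quantile normalization and 0.01 after loess centring, against -0.17 at the lower floor, -0.18 without any floor and -0.12 without suffixed probe sets. They summed to 6319.7 in the double knockout pool and 6467.1 in the control pool. Ptprc, which encodes the leukocyte antigen CD45, read 151.0 in the double knockout pool and 144.9 in the control pool, under the floor in both. Among the 19 measured microglia and macrophage markers, 12 had a positive difference and 7 a negative one, and their median difference was 0.22. This list summed to 11502.4 in the double knockout pool and 10332.3 in the control pool. The count past 1.5-fold higher was 2, against 0.37% of all measured genes. Of the 19, 17 reached the floor in both pools. Mpeg1 and Lyve1, counted higher, reached it in the double knockout pool alone, which fixed their direction. Mrc1, a border macrophage receptor, differed by 0.68 and C1qc by 0.46, Mpeg1 was at least 1.66-fold higher, and P2ry12, of resident microglia, differed by -0.37.

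**Figure D3:**
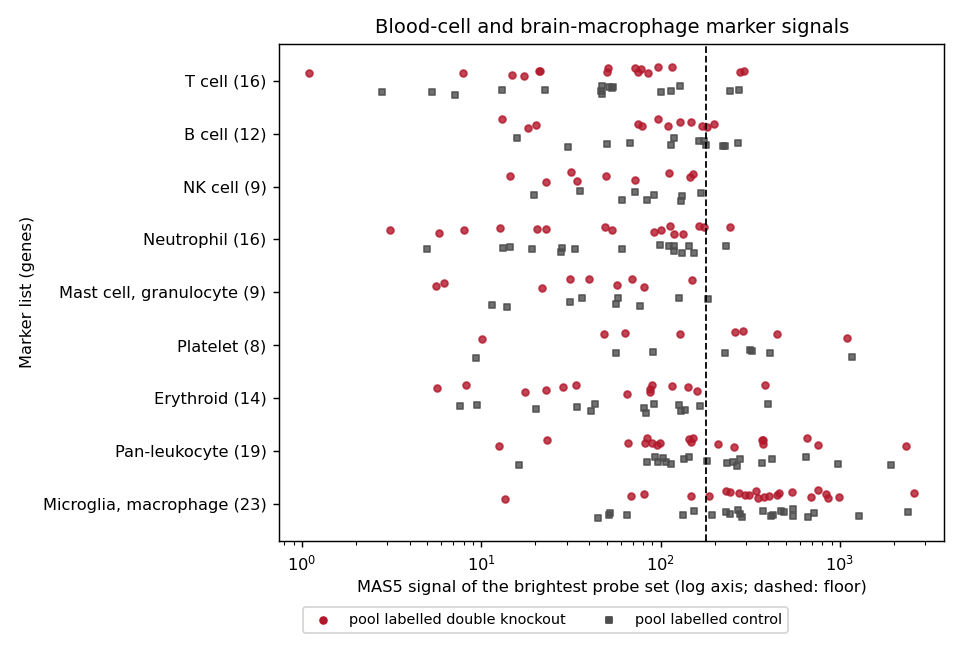
Signal of the brightest probe set (log axis) of each named gene in 9 marker lists, with the number of genes in parentheses, in the pool labelled double knockout (red circles) and the pool labelled control (grey squares). Most T cell, NK cell, neutrophil and erythroid markers lie left of the dashed floor of 178.6 in both pools, and most microglia and macrophage markers lie right of it.

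The sizes of the 4 differences depended on how dim signals were treated. With a pseudocount equal to the floor in its place they were -0.88 for Zap70, -0.68 for Jak3, -0.62 for Pglyrp1 and -0.46 for Dok2, and with no floor -1.30, -1.19, -1.10 and -0.82 in the same order. With the floor at the 75th percentile of signals, Zap70 reached it in the control pool alone and the others in neither. Jak3 has no value without probe sets carrying suffixes. Every setting reworked the same 2 arrays for genes chosen for being low, so the direction they share across settings supports nothing.

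**Figure D4:**
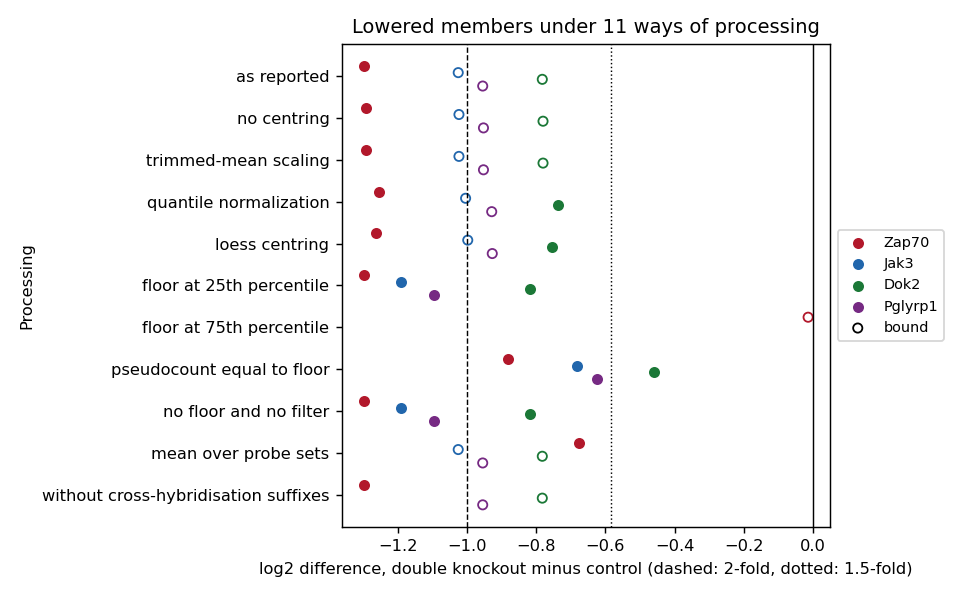
Log2 difference of Zap70, Jak3, Dok2 and Pglyrp1, double knockout minus control, under 11 ways of processing (rows), with open circles for bounds. All values lie left of 0, for genes that were chosen for being low. Zap70 is at -1.30 as reported, at -0.68 with the mean over its probe sets and at a bound of -0.01 with the high floor. The pseudocount brings all 4 closer to 0.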

How the data were processed

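Each of 2 arrays was hybridised with biotin-labelled cRNA made from 6 ug of total RNA, pooled from 3 animals, per the labels' protocols. The deposited intensity values are probe set signals that the authors computed with MAS5 (named in the submitters' processing notes, per the labels). Its version and scaling target are not given in the sources used, and the 2% trimmed mean was 500 on both arrays. Probe sets were named from the platform annotation: of 45101, 64 were controls, 34945 named 1 gene, 932 several and 9160 none. By Entrez identifier, 99.4% of those with 1 gene matched RefSeq on GRCm38.p6. Promoter sequences are RefSeq's.

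Signals were centred on the median difference of probe sets bright on both arrays (0.0037 log2), then raised to the floor of 178.6 (50th percentile). Genes took their brightest measured probe set. Folds of 2 and 1.5 were used for counting. Tools were statsmodels 0.14.6, pandas 2.3.3 and numpy 2.4.6 under Python 3.11.15, with scripts tested on simulated data, and plotted with matplotlib 3.10.9. The number of arrays, 1 per group, limits the precision.

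The 10 members and the 15 lists (242 entries) were chosen with earlier results of these data known. Genes named are every member, up to 3 genes per list with the largest differences among those at or above the floor in both pools, bounds past 1.5-fold, the 3 nearest to Zap70, and the neighbours of the 4 lowered genes; the leukocyte list's largest differences are not reported here. Other list genes named (Fyn, Lat, Themis, Jak1, Jak2, Il7r, Il15ra, Pglyrp2, Blk, Pax5, Cd79a, Cd79b, Ptprc, Lyve1) were chosen after their values were seen. Alternatives were no centring, trimmed-mean scaling, quantile normalization, loess (span 0.3), floors at the 75th and 25th percentile, no floor at all, the floor added as a pseudocount, the mean over probe sets, and no probe sets with suffixes.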

Additional observations from a re-analysis of the deposited data

How the results depend on the processing

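No paired analysis was possible because each group has 1 array. A count was taken to have moved when it changed by more than 1.5 times, and a difference when it changed by more than 0.181 log2, the SD between probe sets of a gene. The higher floor is the 75th percentile of signals and the lower one the 25th. Of the alternative values of counts and of the members' median, 52 stayed within these limits and 28 moved, and 0 reversed. Counts cannot reverse, and the median rests mostly on the 4 genes chosen for being low. Members past 2-fold lower, 2 as reported, were 1 after loess centring, with the mean over probe sets and without suffixed probe sets, 0 with the pseudocount and with the higher floor, and 4 with no floor, where Pglyrp1 and the dim Cd3g, at -1.67, joined Zap70 and Jak3. Members past 1.5-fold lower, 4 as reported, were 0 with the higher floor. The median of the members, -0.95 as reported, was -0.0144 with the higher floor and -0.62 with the pseudocount. Lists with a median below 0, 9 of 15 as reported (14 of which have a median), were 3 with the higher floor. They were 13 with the lower floor and also with no floor, which is within the limits. Genes past 2-fold, 4 higher and 5 lower as reported, were 38 higher and 101 lower with the lower floor, 1 and 0 with the higher floor, 393 and 863 with no floor, 2 and 3 without suffixed probe sets, and 0 lower with the pseudocount. Genes past 1.5-fold, 43 higher and 90 lower as reported, were 67 higher after quantile normalization, 189 higher and 675 lower with the lower floor, 11 and 10 with the higher floor, 20 and 28 with the pseudocount, and 742 and 1874 with no floor. A lower floor lets in dimmer probe sets, and fewer genes are tested with a higher floor. Medians of the neutrophil list ran from -0.19 to 0.13 and of the T cell receptor signalling list from -0.10 to 0.16 over these settings, and both change sign with the lower floor. Signal over background limits Jak3, Dok2 and Pglyrp1, whose double knockout signals lie under the floor.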
